A study of Homo sapiens with 18 samples.

Results

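Genomic imprinting was examined through 35 genes with parent-of-origin expression in human tissues, all of which were found by symbol among the 27781 genes of a count table from K562 cells, an erythroleukaemia line. The genes were proposed because of DIRAS3, which was selected on its lower counts in the contrast described here. DIRAS3 is therefore described without a test. The libraries compare cells transfected with antisense gapmers that target circPCMTD1, a circular RNA of the PCMTD1 gene, at its backsplice junction, with cells given scrambled gapmers, both harvested at 48 hours. Each group had 3 biological replicates of K562 in the same medium, with 3 technical libraries per replicate. The sample descriptions say siRNA where the protocols say gapmers; the protocols were followed here. They do not say whether the biological replicates came from separate cultures, so p-values measure only the spread between these samples, which may be technical.

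At an imprinted locus the copies inherited from the mother and the father carry different DNA methylation at a control region, and 1 of the copies is transcribed. Many such genes lie in clusters that share a control region and a long noncoding RNA, and many act on growth, placental development and metabolism. The marks are set in the germ line and are kept through cell division by maintenance methylation and zinc finger proteins. Tumour lines often lose or gain them. Gene counts do not separate the parental copies, so allelic expression was not analysed here.

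The libraries held 19118533 to 29432699 counted reads, and the 6 samples made by summing technical libraries held 63851576 to 76087774. No pair of libraries held identical columns. Knockdown libraries 3_2 and 3_3 stood apart from the others of their group. Set against the other libraries of their group, genes in the highest 10% of transcript GC content were lower there, with mean log2 differences of -0.15 and -0.17, while the other 16 libraries ran from -0.07 to 0.08. Genes in the lowest 10% were at 0.08 and 0.11, of which the first is within the range of the other 16, -0.07 to 0.08. PCMTD1 had 20.03, 19.8 and 21.9 CPM, counts scaled to 1000000 counted reads, in scrambled replicates 1 to 3 and 12.6, 11.7 and 12.5 in knockdown replicates 1 to 3, so the knockdown samples were all lower, in the direction of their labels. Gene counts do not tell circular from linear PCMTD1 RNA.

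The labels call the cells lymphoblasts. Of the defining B cell markers, MS4A1 had 0 counts in all libraries. Erythroid markers were high, with GATA1 at 223 ± 4.23 CPM in scrambled and 237 ± 12.2 CPM in knockdown samples (SD, n = 3) and the fetal globin HBG2 at 5078 ± 47.6 and 5381 ± 194 CPM. The summed level of the 11 erythroleukaemia markers was 11760 to 11950 CPM in scrambled and 12190 to 12890 CPM in knockdown samples. The 4 T cell markers summed to 4.43 to 4.92 and 6.5 to 6.65 CPM, and the 4 myeloid markers to 36.4 to 38.3 and 46.0 to 47.0 CPM, nearly all from LYZ, with MPO at 26 counts in all libraries. The fibroblast, epithelial and trophoblast sums overlapped between groups, at 2.21 to 2.91 against 2.05 to 2.76, at 45.4 to 47.2 against 45.6 to 49.0, and at 0.318 to 0.425 against 0.200 to 0.324 CPM. Within the fibroblast sum 2 genes moved in opposite directions. COL1A1 fell from 1.99 ± 0.435 to 1.23 ± 0.285 CPM with overlapping ranges (edgeR adjusted p = 0.00582). COL1A2 rose from 0.491 ± 0.135 to 0.873 ± 0.0685 CPM (0.00717). The epithelial sum was nearly all from EPCAM, with KRT5 at 1 count, KRT14 at 0 and CDH1 at 48. The part of these shifts in the results on imprinted genes was not tested. In bulk samples a lower level in some cells and fewer cells with the RNA cannot be told apart.

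Promoter sequences from RefSeq (GRCh38.p14), from 250 bases before to 50 after an annotated start, were found for 22 of the 35 genes, in 59 windows that overlap where a gene has close starts. Methylation at CpG sites carries the imprint, so the CpGs are in capitals in the windows below. DIRAS3 is shown because it gave the list its name, and NDN, MKRN3 and MAGEL2 because these neighbours on chromosome 15 differed in level. The DIRAS3 window is at chr1:68050578-68050877 on the minus strand, NDN at chr15:23687256-23687555 on the minus strand, MKRN3 at chr15:23565424-23565723 on the plus strand and MAGEL2 at chr15:23647818-23648117 on the minus strand. Each is written 5′ to 3′ in the direction of the gene.
DIRAS3: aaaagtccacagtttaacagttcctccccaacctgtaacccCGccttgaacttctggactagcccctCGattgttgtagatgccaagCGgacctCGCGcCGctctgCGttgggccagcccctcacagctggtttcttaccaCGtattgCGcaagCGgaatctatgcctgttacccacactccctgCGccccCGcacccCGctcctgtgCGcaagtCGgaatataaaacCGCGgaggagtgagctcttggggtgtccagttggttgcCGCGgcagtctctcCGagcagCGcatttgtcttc
NDN: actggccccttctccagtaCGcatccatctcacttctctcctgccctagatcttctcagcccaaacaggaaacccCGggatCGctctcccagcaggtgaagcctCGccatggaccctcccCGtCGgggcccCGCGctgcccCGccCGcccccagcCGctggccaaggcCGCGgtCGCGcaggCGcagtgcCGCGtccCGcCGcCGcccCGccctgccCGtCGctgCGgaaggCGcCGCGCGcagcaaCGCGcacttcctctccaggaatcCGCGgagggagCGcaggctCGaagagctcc
MKRN3: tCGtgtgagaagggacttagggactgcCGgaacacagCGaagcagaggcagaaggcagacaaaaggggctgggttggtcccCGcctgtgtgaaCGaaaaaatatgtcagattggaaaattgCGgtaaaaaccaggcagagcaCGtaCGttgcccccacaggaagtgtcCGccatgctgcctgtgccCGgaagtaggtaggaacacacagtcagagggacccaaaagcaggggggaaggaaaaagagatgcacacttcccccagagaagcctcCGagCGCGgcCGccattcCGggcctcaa
MAGEL2: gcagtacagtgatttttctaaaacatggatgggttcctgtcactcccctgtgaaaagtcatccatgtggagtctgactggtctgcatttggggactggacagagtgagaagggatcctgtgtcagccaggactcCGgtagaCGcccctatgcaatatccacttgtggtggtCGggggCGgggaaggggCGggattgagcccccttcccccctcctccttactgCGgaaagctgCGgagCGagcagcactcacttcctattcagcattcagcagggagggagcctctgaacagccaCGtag

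The 4 windows held 21 CpGs in DIRAS3, 35 in NDN, 15 in MKRN3 and 9 in MAGEL2. Over all 59 windows of the imprinted genes the median was 18 CpGs, with a range of 2 to 50, beside a median of 14 and quartiles of 4 and 28 over all 34796 RefSeq windows of this length. The letters TGCCGC, the hexamer that the imprint-keeping zinc finger protein ZFP57 is known to bind when methylated, were searched on both strands. DIRAS3 held a pair of overlapping matches on opposite strands, starting at positions 264 and 268 counted from 1 at the 5′ end of its window. NDN held a match starting at position 188, and MKRN3 and MAGEL2 held none. At least 1 match was in 21 of the 59 windows (35.6%) and in 16.7% of all windows. Overlapping windows, such as those of MEG3, can count 1 site more than once, and the 59 windows had a higher median CpG count. By gene, 13 of the 22 had a window with a match. No share by gene was computed over all genes, so the 13 cannot be set against the 16.7%. A match is a description of the letters, and methylation was not measured.

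In K562 cells, 22 of the 35 imprinted genes (62.9%) averaged at least 1 CPM over the 6 samples, against 45.6% of all genes in the table. At least 5 CPM was reached by 17 genes (48.6%, against 37.7%). Another 11 had a count but stayed under 1 CPM, and ZIM2 and SNURF had 0 counts in all 18 libraries. For counting error only, this allows a level of up to 0.00728 CPM over the 6 samples together. Reads in exons shared on the same strand can be left uncounted, which that limit does not cover. ZIM2 shares 41.2% of its exon bases with PEG3, and SNURF 69.3% with SNRPN. With 0.5 CPM as the limit 23 genes were expressed, and with 2 CPM 19 were. Levels are compared between genes below as RPKM, which is CPM divided by the exon length in kilobases, averaged over the 6 samples.

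GNAS and IGF2R had the highest length-scaled levels of the 35 genes. GNAS, the stimulatory G protein alpha subunit, had 26.9 RPKM, and IGF2R, the receptor that clears IGF2 and sorts lysosomal enzymes, had 26.8. DLK1, a NOTCH ligand relative of progenitor cells, had 20.9 RPKM, GRB10, an adaptor that dampens insulin receptor signalling, had 18.6, and COPG2, a coatomer subunit, had 17.2. These 5 lay above the upper quartile of 16.1 RPKM among the 12400 genes with a length and at least 1 CPM. UBE3A, the ubiquitin ligase affected in Angelman syndrome, followed at 10.8 RPKM. PHLDA2, a placental growth restrainer, was at 9.0, NLRP2, a maternal-effect gene of the NLR family, at 8.61, and DIRAS3 at 7.60, all above the median of 6.86 RPKM.

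A middle group lay between 1 and 5 RPKM. It held PLAGL1, a zinc finger regulator of growth, at 4.64, BLCAP at 4.29, the cell cycle inhibitor CDKN1C at 4.21, the ubiquitin ligase MKRN3, which restrains puberty, at 3.54, and the noncoding RNA KCNQ1OT1 at 2.96 RPKM. ZFAT, a zinc finger gene, had 2.05 RPKM, the phosphoinositide phosphatase INPP5F 1.57, and the noncoding RNA HYMAI, whose gene lies within PLAGL1, 1.38. HYMAI is on the same strand as PLAGL1, so reads of PLAGL1 introns and of HYMAI cannot be told apart. KCNQ1OT1 had 289 CPM in scrambled cells, spread over an annotated exon of 91667 bases, so its rank per length was much lower than its rank by count.

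The remaining tested genes were low in RPKM. Of these, L3MBTL1 averaged 10.2 CPM, spread over 15550 annotated exon bases, so it was low per length but not by count. NDN, a MAGE family protein of postmitotic neurons, had 0.809 RPKM, L3MBTL1, a chromatin reader, 0.654, the noncoding RNA H19 0.480, the p53 relative TP73 0.345 and NAP1L5 0.256. ZNF331 had 0.206 RPKM, MEST, a hydrolase-like gene of mesoderm, 0.155, and ZDBF2 0.0337. PEG10, a retrotransposon-derived gene, had 44 counts over all libraries, MEG3, a noncoding RNA, had 18 and PEG3, a zinc finger gene, had 7. IGF2 and MAGEL2 had 2 counts each, and SGCE, SNRPN and NNAT had 1 each. These 8 genes, with ZIM2 and SNURF, did not pass the filter on low counts and had no test.

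**Figure D1:**
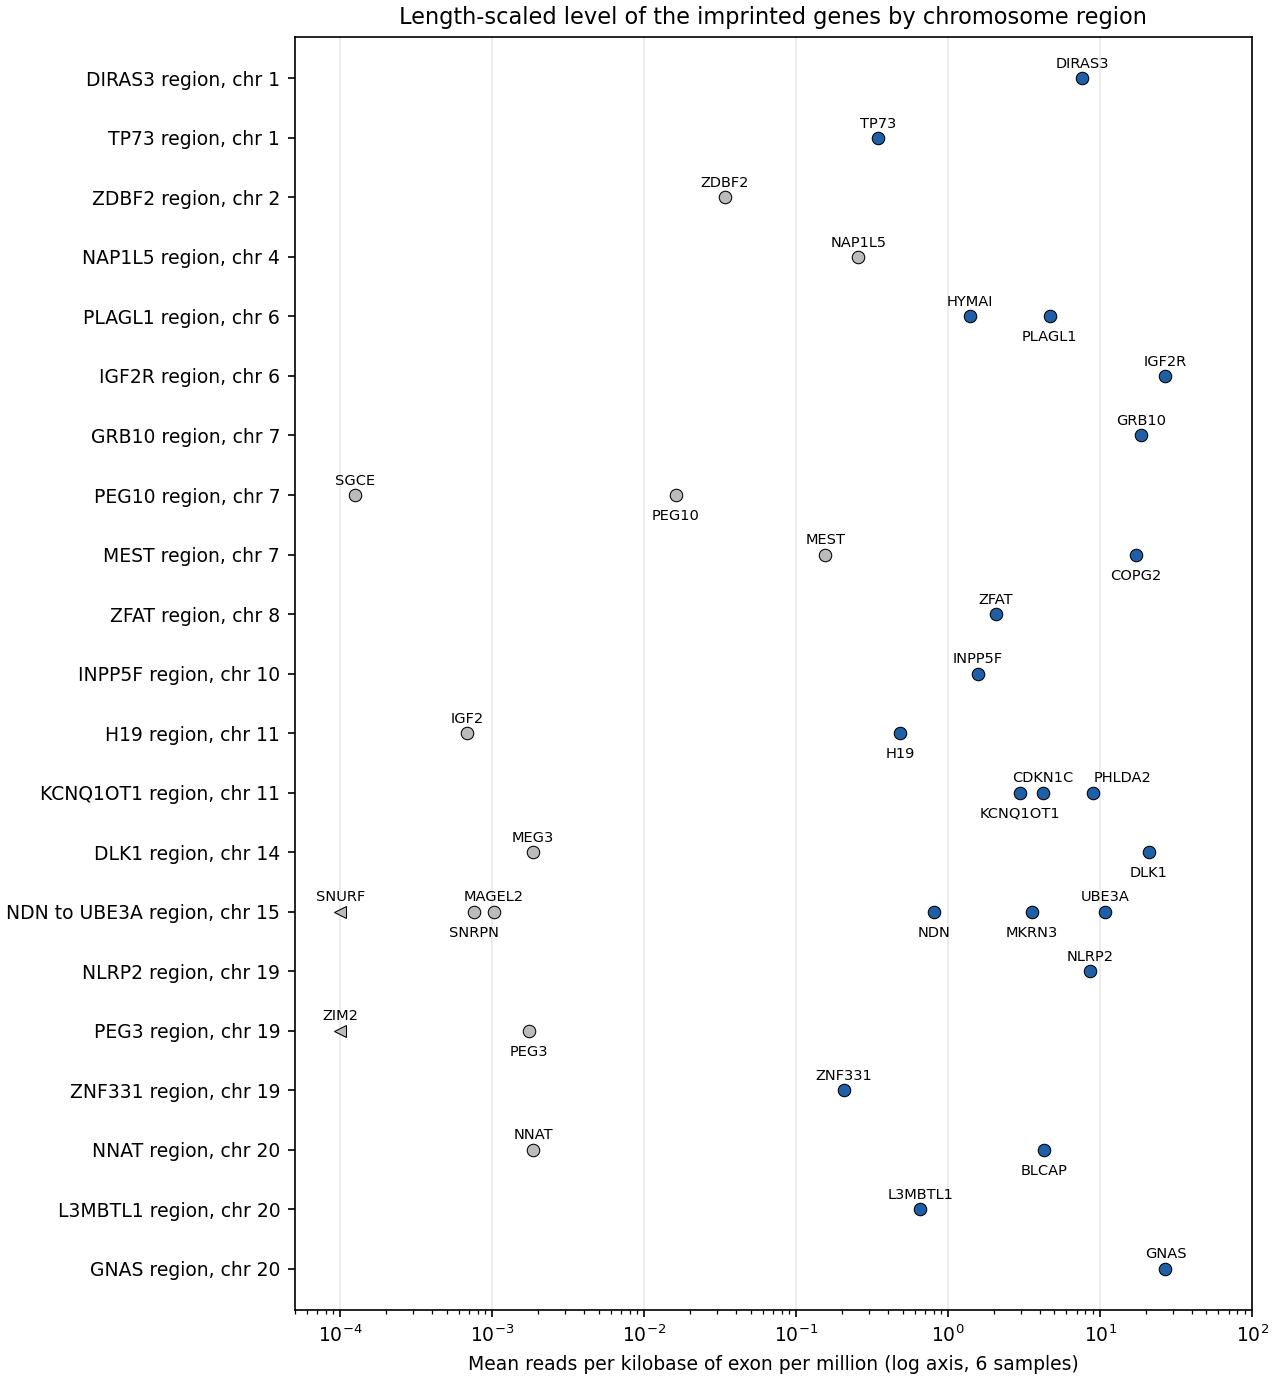
Mean level of each of the 35 imprinted genes over 6 samples, in RPKM on a log axis, by chromosome region; blue points averaged at least 1 CPM, grey points less, and triangles at the left mark the 2 genes with 0 counts. GNAS and IGF2R are farthest to the right, at 26.9 and 26.8 RPKM, and with DLK1, GRB10 and COPG2 they are the 5 genes above 16.1.

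Levels within a cluster spanned a wide range. On chromosome 14 DLK1 had 20.9 RPKM while MEG3, which lies beside it and is expressed from the other parental copy, had 18 counts in all. These were 4, 9 and 1 in scrambled and 0, 2 and 2 in knockdown samples. Other transcripts of that cluster were also near 0, with RTL1 at 56 counts, MEG8 at 15 and MEG9 at 9. On chromosome 11 H19 was present at 0.480 RPKM and IGF2, its partner from the other parental copy, had 2 counts. IGF2 shares 73.7% of its exon bases with another annotated gene of the same name and 20.9% with INS-IGF2, on the same strand. Reads in shared exons can be left uncounted, so the 2 counts do not show that IGF2 RNA was absent. On chromosome 15 UBE3A and MKRN3 were expressed, NDN was low, and MAGEL2, SNRPN and SNURF had 2, 1 and 0 counts. SNURF shares 69.3% of its exon bases with SNRPN on the same strand, and reads there can be left uncounted, so these counts do not show that the shared transcript was absent.

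The whole-table comparison called 2920 of 15678 tested genes (18.6%) at an adjusted p under 0.05, by edgeR's quasi-likelihood test with Benjamini-Hochberg adjustment. Of these 1745 were raised in the knockdown (11.1%) and 1175 were lowered (7.49%), and 34.6% of tested genes had replicate ranges that did not overlap. Among the 24 imprinted genes tested beside DIRAS3, 5 rose, 2 fell and 17 did not pass. DLK1, NDN, ZDBF2, NLRP2 and COPG2 were the 5 that rose, and GRB10 and KCNQ1OT1 the 2 that fell. Replicate ranges did not overlap for 14 of the 24. The median log2 fold change was 0.03 over the 24 genes and 0.00 over all tested genes. The list was proposed with results of this contrast known, so these shares are printed beside the background and nothing is read from them. With a correction for transcript GC content, 47.0% of all calls were raised, against 59.8% without it.

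**Figure D2:**
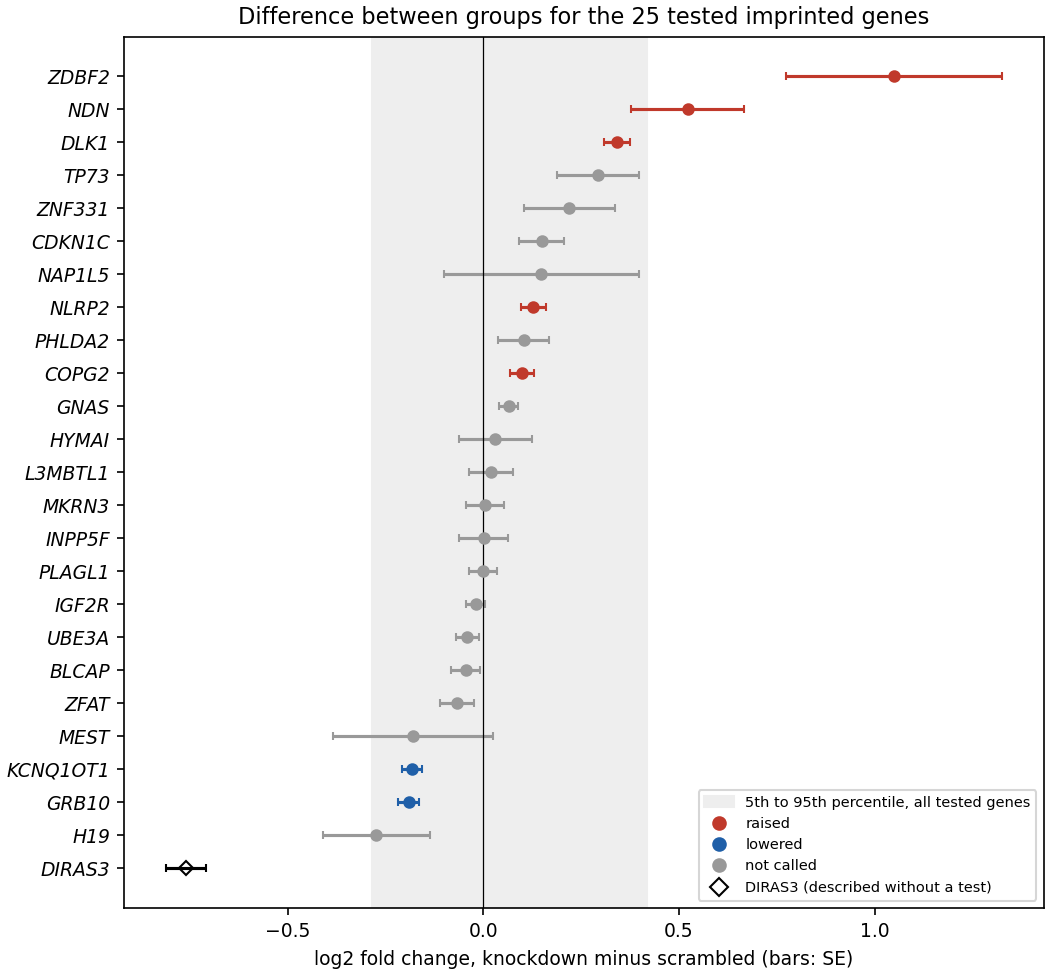
Log2 fold change, knockdown minus scrambled, with its SE for the 25 tested imprinted genes; red points were raised and blue points lowered at an adjusted p under 0.05, grey points were not called, the open diamond is DIRAS3, and the grey band is the 5th to 95th percentile of all tested genes (-0.28 to 0.42). ZDBF2 at 1.05, NDN at 0.52 and DIRAS3 at -0.76 lie outside the band.

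DIRAS3 encodes a small GTPase of the RAS superfamily that restrains growth and takes part in autophagy, and it is normally expressed from the paternal copy. The gene lies at chr1:68045896-68051631 on the minus strand, inside the span of the antisense gene GNG12-AS1, with 0 shared exon bases. It had 19.4, 19.1 and 19.9 CPM in scrambled replicates 1 to 3 and 10.9, 11.5 and 12.1 CPM in knockdown replicates 1 to 3, from 1469, 1350 and 1336 and from 763, 736 and 787 reads. The knockdown values were all below the scrambled values, which is the difference on which DIRAS3 was selected.

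The DIRAS3 means were 19.5 ± 0.367 CPM in scrambled and 11.5 ± 0.628 CPM in knockdown samples (SD, n = 3). The ratio was 0.591, a log2 fold change of -0.76 with an SE of 0.0505. Over the 14 alternative fits it ran from -0.80 to -0.72. Single scrambled libraries ran from 18 to 21 CPM with a median of 19.6, and single knockdown libraries from 10 to 13.3 with a median of 11.4, so all 9 knockdown libraries were below all 9 scrambled ones. The 9 are technical libraries of 3 samples. DIRAS3 was selected on this contrast, so neither this separation nor the range over fits is support for its fall. Technical libraries of 1 replicate varied with an SD of 0.12 on the log2 scale, and replicate means with an SD of 0.06. From that technical spread alone, means of 3 libraries would have an SD of 0.07. PCMTD1 itself, the targeted locus, had a ratio of 0.597.

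The tested neighbours of DIRAS3 on chromosome 1, GNG12 and DEPDC1, did not pass. GNG12, a G protein gamma subunit 212 kb away, had 2.68 ± 0.123 CPM in scrambled and 2.75 ± 0.0783 CPM in knockdown samples, a log2 fold change of 0.04 (SE 0.0957, edgeR adjusted p = 0.815). DEPDC1, a cell division gene 423 kb away, had 41.8 ± 1.92 and 42.9 ± 3.09 CPM, a log2 fold change of 0.04 (SE 0.0455, adjusted p = 0.605). GNG12-AS1 had 17 counts over all libraries and WLS, a WNT carrier 47 kb away, had 1, so neither was tested. Replicate ranges of GNG12 and DEPDC1 overlapped between groups.

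Of the related GTPases, DIRAS1 rose and DIRAS2 had 0 counts. DIRAS1 had 16.9, 16.3 and 15.4 CPM in scrambled replicates 1 to 3 and 19.2, 18.2 and 18.6 CPM in knockdown replicates 1 to 3. Every knockdown sample was above every scrambled one, with a log2 fold change of 0.21 (SE 0.0481, edgeR adjusted p = 0.00427). A list of 15 DIRAS relatives, RAS proteins and autophagy partners had 14 tested genes. In it DIRAS1 and RAP1B, a RAS relative, rose and UVRAG, a partner of the class III PI3 kinase, fell, and the list's median log2 fold change was 0.05. Over all tested genes 18.6% were called. RAP1B had 119.8 ± 2.07 and 131 ± 6.33 CPM (log2 fold change 0.13, edgeR adjusted p = 0.00859, 0.0685 without scrambled replicate 1). UVRAG had 40.6 ± 1.57 and 37.5 ± 0.860 CPM (log2 fold change -0.11, adjusted p = 0.0384), a call lost without scrambled replicate 2 or 3 (0.218 and 0.136) and without knockdown replicate 1 or 2 (0.110 and 0.118). BECN1, the autophagy protein that DIRAS3 is known to bind, had 48.1 ± 0.353 and 47.9 ± 0.467 CPM and did not pass (log2 fold change -0.00, edgeR adjusted p = 0.944).

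**Figure D3:**
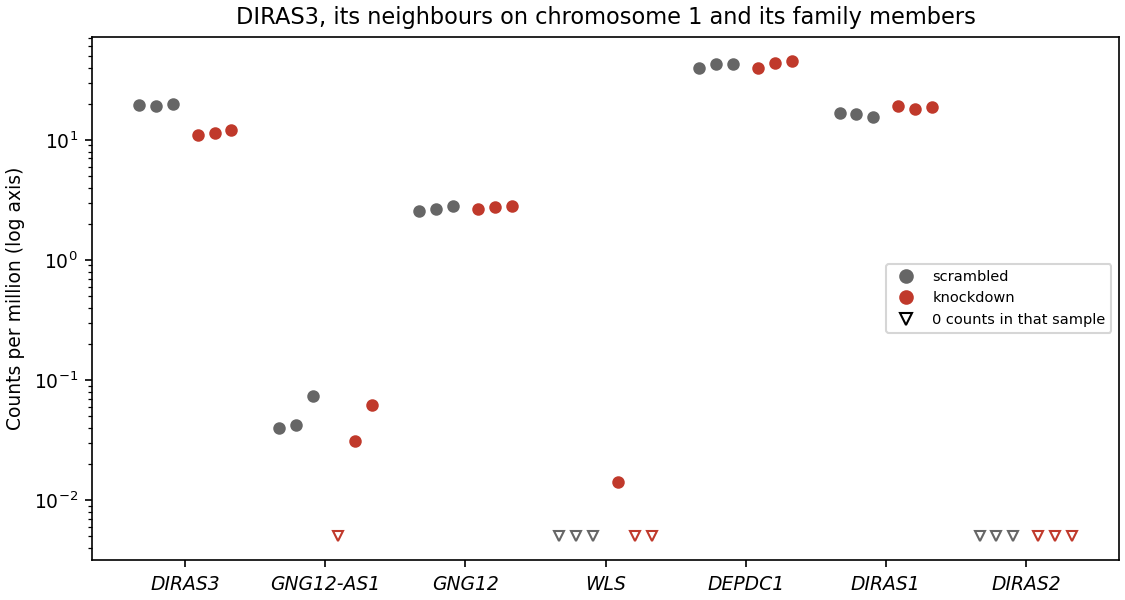
CPM on a log axis in each of the 3 scrambled (grey) and 3 knockdown (red) samples for DIRAS3, its chromosome 1 neighbours GNG12-AS1, GNG12, WLS and DEPDC1, and its relatives DIRAS1 and DIRAS2; open triangles mark samples with 0 counts and are drawn at a fixed low position. DIRAS3 is at 19.1 to 19.9 CPM in scrambled and 10.9 to 12.1 CPM in knockdown samples; the points of GNG12 and DEPDC1 overlap between groups.

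Among growth and signalling genes, DLK1 rose and GRB10 fell. DLK1 lies at chr14:100725705-100738224 on the plus strand and had 97.8, 99 and 96.4 CPM in scrambled replicates 1 to 3 and 128, 125 and 118 CPM in knockdown replicates 1 to 3. All 9 knockdown libraries, at 110 to 133 CPM with a median of 126, were above the 9 scrambled ones, at 93.6 to 102 with a median of 98.4. The means were 97.8 ± 1.29 and 124 ± 5.18 CPM, a log2 fold change of 0.34 (SE 0.0327, edgeR adjusted p = 1.42e-07). DLK1 passed in all 14 alternative fits, with log2 fold changes of 0.32 to 0.38.

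GRB10 lies at chr7:50590063-50793462 on the minus strand. It had 196, 193 and 193 CPM in scrambled replicates 1 to 3 and 169, 172 and 169 CPM in knockdown replicates 1 to 3. The 9 knockdown libraries, at 163 to 177 CPM, were all below the 9 scrambled ones, at 192 to 199 CPM. The log2 fold change was -0.19 (SE 0.0265, edgeR adjusted p = 2.49e-05), close to the median absolute log2 fold change of 0.19 over all called genes, and the call held in the 14 alternative fits.

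GNAS, IGF2R and PLAGL1 were well measured and did not pass. GNAS had 350.1 ± 5.49 and 366 ± 5.41 CPM (log2 fold change 0.06, SE 0.0247, edgeR adjusted p = 0.0717). The samples did not overlap, with 356 as the highest scrambled and 363 as the lowest knockdown value. GNAS passed in 6 of 14 alternative fits, among them those without knockdown replicate 3 (0.000355) and with GC correction (0.0198), and its log2 fold change was 0.05 to 0.08 over the 14. Among the 6 is the fit with libraries entered singly (0.00468), which treats technical libraries as replicates. IGF2R had 482 ± 2.63 and 476 ± 11.3 CPM (log2 fold change -0.02, SE 0.0242, adjusted p = 0.637), and PLAGL1 had 40.5 ± 0.860 and 40.5 ± 1.10 CPM (-0.00, SE 0.0361, 0.986). INPP5F was at 12 ± 0.703 and 12 ± 1.02 CPM (0.00, SE 0.0623, 0.993).

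On chromosome 11, KCNQ1OT1 fell, and CDKN1C and PHLDA2 did not pass. KCNQ1OT1 is the paternal noncoding RNA that silences its neighbours in cis, at chr11:2608328-2699994 on the minus strand within KCNQ1. It had 286, 287 and 293 CPM in scrambled replicates 1 to 3 and 258, 250.4 and 254 CPM in knockdown replicates 1 to 3. All 9 knockdown libraries, at 245 to 268 CPM, were below the 9 scrambled ones, at 283 to 302 CPM. The log2 fold change was -0.18 (SE 0.0255, edgeR adjusted p = 2.52e-05) and the call held in the 14 alternative fits. KCNQ1 had 13 counts in all. No source used here gives the strand setting of the counting, so reads of KCNQ1 introns and of KCNQ1OT1 cannot be told apart.

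CDKN1C, a maternally expressed gene of the same domain, had 10.4, 9.71 and 9.55 CPM in scrambled and 10.6, 11.6 and 10.7 CPM in knockdown replicates. Every knockdown sample was higher, but the test was not passed (log2 fold change 0.15, SE 0.0579, edgeR adjusted p = 0.0773). It passed in 3 of 14 alternative fits, among them those without knockdown replicate 3 (0.0305) and without knockdown libraries 3_2 and 3_3 (log2 fold change 0.21, 0.0029). With GC correction CDKN1C did not pass (0.12, 0.0843). PHLDA2 had 8.28 ± 0.336 and 8.90 ± 0.714 CPM with overlapping ranges (0.10, SE 0.0652, 0.298). Of the 14 alternative fits, it passed only in that without knockdown replicate 3 (0.17, 0.0369). With GC correction its log2 fold change was 0.075 (0.341). H19, in the neighbouring domain, had 1.71, 1.47 and 1.38 CPM in scrambled and 1.31, 1.30 and 1.17 CPM in knockdown replicates. Its groups did not overlap, and it did not pass (log2 fold change -0.27, SE 0.137, edgeR adjusted p = 0.178).

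**Figure D4:**
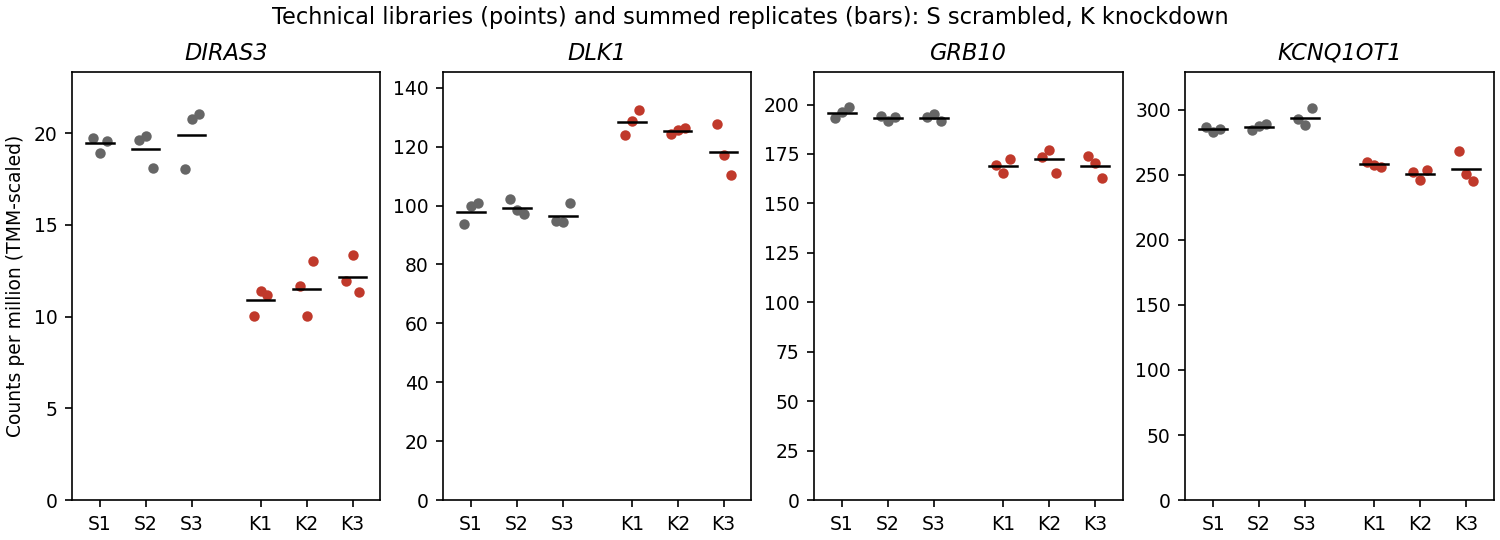
TMM-scaled CPM of DIRAS3, DLK1, GRB10 and KCNQ1OT1 in each of the 18 technical libraries (points) with the summed replicate (bars), scrambled replicates S1 to S3 in grey and knockdown replicates K1 to K3 in red, axes from 0. In each panel the 9 knockdown libraries are on 1 side of the 9 scrambled libraries, above for DLK1 and below for the other genes. DIRAS3 was selected on this difference.

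On chromosome 15, NDN rose from a low level, and the imprinted genes MKRN3 and UBE3A did not pass. NDN had 1.43, 1.06 and 1.35 CPM in scrambled replicates 1 to 3 and 2.04, 1.95 and 1.53 CPM in knockdown replicates 1 to 3, from 75 to 143 reads per sample. The knockdown samples were all higher, but single libraries overlapped, at 0.944 to 1.5 and 1.41 to 2.36 CPM. The log2 fold change was 0.52 (SE 0.144, edgeR adjusted p = 0.0133). The call was lost without scrambled replicate 2 (0.0844), knockdown replicate 1 (0.0638) or knockdown replicate 2 (0.0554). MKRN3 had 20.2 ± 1.01 and 20.3 ± 0.975 CPM (log2 fold change 0.00, SE 0.0484, adjusted p = 0.969). UBE3A had 140.5 ± 2.00 and 137 ± 3.30 CPM (-0.04, SE 0.0292, 0.368), and passed as lower in 4 alternative fits, among them that without knockdown replicate 3 (-0.06, 0.0164). MKRN3 and UBE3A ranges overlapped between groups, and the difference between NDN and MKRN3 in response was not tested.

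ZDBF2, a zinc finger gene on chromosome 2 whose imprint acts on growth in mice, rose from near the limit of measurement. It had 0.185, 0.284 and 0.253 CPM in scrambled replicates 1 to 3 and 0.600, 0.391 and 0.494 CPM in knockdown replicates 1 to 3, from 14, 20 and 17 and from 42, 25 and 32 reads. The log2 fold change was 1.05 (SE 0.276, edgeR adjusted p = 0.00988). It did not pass without scrambled replicate 1 (0.0674) or knockdown replicate 1 (0.0648). DESeq2 gave no adjusted p for it, and the fit with libraries entered singly gave no result for it, so 12 alternative fits cover ZDBF2.

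NLRP2, at chr19:54953130-55001142 on the plus strand, had 51.3, 52.2 and 52.4 CPM in scrambled replicates 1 to 3 and 57.2, 56.2 and 56.8 CPM in knockdown replicates 1 to 3. The groups were tight and separate, with a log2 fold change of 0.13 (SE 0.0323, edgeR adjusted p = 0.00739). Without scrambled replicate 1 the adjusted p was 0.0606. COPG2, on chromosome 7, had 69.2, 69.5 and 67.4 CPM in scrambled and 73.0, 72.6 and 75.1 CPM in knockdown replicates. It rose by 0.10 on the log2 scale (SE 0.0317, adjusted p = 0.0316), and did not pass without scrambled replicate 1, 2 or 3 (0.0939, 0.0898 and 0.158) or knockdown replicate 2 (0.0593). COPG2 shares 228 exon bases with MEST on the opposite strand, 5.5% of its own. MEST had 0.788 ± 0.0339 and 0.700 ± 0.212 CPM and did not pass (log2 fold change -0.18, SE 0.205, adjusted p = 0.598).

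The other genes did not pass. TP73 had 2.17, 1.97 and 2.16 CPM in scrambled and 2.73, 2.62 and 2.36 CPM in knockdown replicates, all higher, with a log2 fold change of 0.29 (SE 0.105, edgeR adjusted p = 0.0549). It passed in 5 of 14 alternative fits, among them that without knockdown replicate 3 (0.35, 0.0223). Another of the 5 is the fit with libraries entered singly (0.0275), which treats technical libraries as replicates. ZNF331 had 1.70 ± 0.113 and 1.98 ± 0.117 CPM with separate ranges (0.22, SE 0.116, 0.204). BLCAP had 34.3 ± 0.734 and 33.3 ± 0.243 CPM (-0.04, SE 0.0365, 0.439). ZFAT had 18.7 ± 0.294 and 17.8 ± 0.304 CPM, separate as well (-0.07, SE 0.0441, 0.319). The log2 fold changes of HYMAI and L3MBTL1 were 0.03 and 0.02, and that of NAP1L5, at 0.463 ± 0.0470 and 0.518 ± 0.163 CPM, was 0.15 (SE 0.249, 0.735). PEG10, which was not tested, had 10, 4 and 5 reads in scrambled and 5, 9 and 11 in knockdown replicates.

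Of 47 further imprinted genes listed for comparison, 42 were in the table and 16 were tested. SLC22A18, a transporter near PHLDA2, rose, MCTS2 and LRRTM1 fell, beside 18.6% called over all tested genes, and the median log2 fold change was -0.003. SLC22A18 had 6.84 ± 0.426 and 8.21 ± 0.954 CPM (log2 fold change 0.26, SE 0.0764, edgeR adjusted p = 0.0192), a call lost without scrambled replicate 2 or 3 (0.0833 and 0.0829) and without knockdown replicate 1 or 2 (0.0561 and 0.131). MCTS2, a retrotransposed copy whose reads can be shared with its source gene, had 11.6 ± 0.463 and 10.1 ± 0.527 CPM (-0.21, SE 0.0573, 0.0133), lost without scrambled replicate 1 (0.0922) or knockdown replicate 1 (0.0725). LRRTM1 had 1.58 ± 0.169 and 1.19 ± 0.0809 CPM (-0.41, SE 0.137, 0.0408), lost with DESeq2 (0.137), without knockdown libraries 3_2 and 3_3 (0.0519), and without scrambled replicate 1 or 2 (0.197 and 0.0774) or knockdown replicate 2 (0.132).

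Among 29 factors that set, keep or erase imprints, 23 were tested, 2 rose and 1 fell, read beside 11.1% raised and 7.49% lowered over all tested genes. DNMT3A, a de novo DNA methyltransferase, had 15.8, 15.5 and 15.5 CPM in scrambled replicates 1 to 3 and 20.5, 20.9 and 19.2 CPM in knockdown replicates 1 to 3. The groups did not overlap, with a log2 fold change of 0.37 (SE 0.0467, edgeR adjusted p = 6.46e-06), and DNMT3A passed in the 14 alternative fits. TET1, which oxidises methylcytosine, had 129.6 ± 1.28 and 139 ± 4.98 CPM (0.10, 0.0211) and did not pass without scrambled replicate 1, 2 or 3 (0.116, 0.0753 and 0.0714). EZH2, the histone methyltransferase of Polycomb complex PRC2, had 171 ± 2.08 and 161 ± 4.46 CPM (-0.08, 0.0484) and did not pass without scrambled replicate 1, 2 or 3 (0.123, 0.126 and 0.199) or knockdown replicate 1 or 2 (0.0898 and 0.226).

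The maintenance factors did not pass. DNMT1, the maintenance methyltransferase, had 408 ± 4.76 and 414 ± 11 CPM (log2 fold change 0.02, edgeR adjusted p = 0.621). UHRF1, which brings it to replicated DNA, had 161 ± 1.11 and 167 ± 8.60 CPM (0.06, 0.233). TRIM28, the corepressor recruited by zinc finger proteins, had 879 ± 10.8 and 868 ± 39.2 CPM (-0.02, 0.701). ZNF445 had 154 ± 2.30 and 147 ± 1.45 CPM (-0.07, 0.0897), while ZFP57 had 47 counts in all libraries, DNMT3L 3 and DPPA3 0.

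A list of 43 other genes near the clusters held 3 that lie more than 1 Mb from any of the 35 genes. Of the 40 nearer ones, a limit set after the values were seen, 34 were tested, 5 rose and 2 fell, with a median log2 fold change of -0.006. Over all tested genes 18.6% were called. TUBGCP5, a gamma tubulin complex gene 526 kb from MKRN3, had 26.4, 26.4 and 26.4 CPM in scrambled replicates 1 to 3 and 37.8, 37.0 and 36.2 CPM in knockdown replicates 1 to 3. Its log2 fold change of 0.49 (SE 0.0371, edgeR adjusted p = 3.53e-09) stood beside 0.00 for MKRN3. WARS1, a tryptophan tRNA synthetase 349 kb from DLK1, had 280 ± 3.77 and 246 ± 1.95 CPM (-0.19, SE 0.0252, 1.47e-05), beside 0.34 for DLK1. The other 4 that rose, named after their values were seen, were HERC3, whose span holds NAP1L5 on the opposite strand, at 16.4 ± 0.356 and 20.3 ± 0.779 CPM (0.31, adjusted p = 5.7e-05), CTSZ beside GNAS (0.22, 3.39e-05), IFT52 beside L3MBTL1 (0.18, 0.00742) and SMIM1 beside TP73 (0.14, 0.0354). CARS1, near PHLDA2, fell with a log2 fold change of -0.17 (adjusted p = 0.000962). IFT52 did not pass without scrambled replicate 2 (0.0506). SMIM1 did not pass with DESeq2 (0.0677), without scrambled replicate 1 or 3 (0.112 and 0.164) or without knockdown replicate 1 or 2 (0.233 and 0.0544). DPF1, a chromatin remodelling subunit on the list, had 1.98 ± 0.0366 and 3.62 ± 0.184 CPM (0.88, SE 0.0963, adjusted p = 1.11e-06), but lies 15290 kb from ZNF331, the nearest of the 35 genes.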

How the data were processed

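The data were 18 RNA-seq libraries of K562 cells, 9 per group. The submitters' processing notes name GRCh38, STAR, featureCounts and Trim Galore. No source used here gives their versions, the gene annotation or the strand setting. The authors deposited whole-number counts per gene symbol. Per the labels' protocols, total RNA was depleted of ribosomal RNA and made into directional libraries.

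Technical libraries were summed by biological replicate, giving 3 samples a group. Genes were filtered with filterByExpr, scaled with TMM and tested with edgeR 4.0.16 (robust quasi-likelihood test) in R 4.3.3, with Benjamini-Hochberg adjustment over all 15678 tested genes and a threshold of 0.05. CPM are counts per 1000000 of the TMM-scaled total of tested genes, and SDs are over 3 summed samples. Depth was 63851576 to 76087774 counts per sample, and limits for 0 counts cover counting error only (3 counts over all samples). Exon lengths, GC content (found for 96.4% of tested genes) and gene coordinates came from GENCODE release 29 on GRCh38, which need not be the annotation of the counts. The test was checked on simulated counts.

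The named genes are all 35 imprinted genes, the tested genes of the DIRAS3 locus, DIRAS1 and DIRAS2, and up to 3 called genes with the smallest p from each comparison list; genes outside that rule (marker genes, maintenance factors, further neighbours) were chosen after their values were seen. The genes and lists were chosen with earlier results of these data known. Alternatives were DESeq2 1.42.0, RLE size factors, no count filter, a replicate block, libraries entered singly, removal of knockdown libraries 3_2 and 3_3, a lowess correction for GC content (span 0.3) with and without the block, other expression limits, and each replicate left out. The fit with libraries entered singly treats technical libraries as independent replicates, so its p-values and counts of calls are not those of 3 samples a group. Replicate numbers are shared between groups, but no label says that a number marks a shared culture or day. Part of the marker results is not reported here.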

Additional observations from a re-analysis of the deposited data

Results flagged for a closer look

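Of 50 groups of 9 technical libraries (the 25 tested imprinted genes in each treatment), 2 held a library far from the other 8 by Dixon's criterion; chance alone gives such a value in about 1 of 20 groups. NAP1L5 had 1.21 CPM in knockdown library 3_2, the highest of the 9 knockdown libraries, whose median was 0.414 CPM. ZNF331 had 1.16 CPM in the same library, the lowest of the 9, whose median was 2.07 CPM. Neither gene passed the test between groups.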

How the results depend on the processing

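DLK1, GRB10 and KCNQ1OT1 kept their direction and their call in all 14 alternative fits. Against 1745 genes raised, leaving out 1 replicate gave 1127 to 2482. Against 1175 lowered there were 1772 with a replicate block, 2036 with libraries entered singly, 2426 without knockdown libraries 3_2 and 3_3, 2613 with GC correction, 2633 with GC correction and the block, and 623 to 2280 when leaving out 1 replicate. Against 5 imprinted genes raised there were 8 with the block, 8 without those libraries, and 2 (without scrambled replicate 1) to 9 (without knockdown replicate 3) when leaving out 1 replicate; 2 or 3 were lowered in every fit. Against 18 calls in the comparison lists there were 32 with the block, 35 with libraries singly, 39 without those libraries, 42 with GC correction, 43 with GC correction and the block, and 12 to 39 when leaving out 1 replicate. The 7 imprinted genes called were all called again with the block, which also called CDKN1C (adjusted p = 0.0423), GNAS (0.0252) and TP73 (0.0409). Deviations of same-numbered samples correlated at 0.03, 0.01 and 0.01. These values are over all tested genes, so they do not exclude a shared culture or day that acted on some genes. No label gives pairs, and the numbers were not read as pairs. Uncalled values changed sign by more than their SE for HYMAI (-0.069 without scrambled replicate 2, to 0.143), INPP5F (-0.071 without knockdown replicate 3, to 0.051) and DEPDC1 (-0.014 without those libraries, and -0.01 to 0.094 when leaving out 1 replicate). MEST (-0.425 to 0.022), NAP1L5 (-0.087 to 0.383), MKRN3 (-0.036 to 0.032), PLAGL1 (-0.014 to 0.02) and L3MBTL1 (-0.008 to 0.046) also crossed 0, within their SE where the sign changed. The causes of these shifts were not tested. Low counts limit ZDBF2, NAP1L5 and the 10 untested genes.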
